A study of Mus musculus with 12 samples.

Results

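The genotype-by-injury interaction was measured for every gene as the injury response of mice without tubular glucocorticoid receptor minus the injury response of control mice, over all 12 arrays of the series. Each gene was represented by the probe set that carried exactly 1 gene symbol and, where a gene had several, the highest mean over the 12 arrays. This gave 19938 genes of 35556 probe sets. A response is the mean log2 expression after acute kidney injury (AKI) minus the mean in healthy mice, and a negative interaction means that the response of receptor-deficient mice was lower, or more negative, than that of control mice.

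The glucocorticoid receptor (GR, gene Nr3c1) is a transcription factor that enters the nucleus when it binds a glucocorticoid hormone. It acts on genes by binding DNA or by joining other factors such as AP-1, NF-kB and STAT3, and the renal tubule is one of its target tissues. Glycerol in muscle breaks muscle fibres open, and the myoglobin released reaches the tubule, where its heme is broken down and can cause oxidative damage. Injured tubule cells are known to lower transporters and enzymes of the differentiated state and to raise injury markers, stress proteins and the antioxidant genes of the factor NRF2.

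Renal cortex RNA was hybridised in 4 groups of 3 arrays. Control mice carried nr3c1 flox/flox, and GR-deficient mice carried Pax8-Cre with nr3c1 flox/flox, so floxed Nr3c1 was common to all 4 groups and any effect of the Cre itself cannot be told apart from GR loss. Pax8-Cre acts in tubular epithelium, and the cortex also holds vessels, glomeruli, stroma and immune cells with an intact receptor. Mice with AKI were taken 24 hours after intramuscular glycerol, and the healthy mice were a second cohort without injection, so a difference between the cohorts is part of each response. No age, strain or number of animals per array is stated in the labels. In cortex RNA, fewer cells of a type and less RNA per cell cannot be told apart. The severity of injury was not analysed here, so a smaller response and a milder injury cannot be told apart.

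Array medians lay between 7.001 and 7.092, and arrays of a group correlated at 0.9837 to 0.9955. The SD over genes was 1.876 on control AKI replicate 1 and 1.957 to 2.059 on the other arrays. Control AKI replicate 1 and GR-deficient healthy replicate 1 lay away from the rest of their groups, the first with 33.8 on the second principal component where the next highest array had 11.6 and the second with -34.8 on the third component. The first component held 56.0% of the variance. On it the control AKI arrays lay at 51.8, 50.4 and 41.4, the GR-deficient AKI arrays at 6.6, -0.5 and -4.4, and the 6 healthy arrays between -29.1 and -17.5. The injured GR-deficient cortices thus lay between the injured control cortices and the healthy ones, closer to the healthy. Tubule markers were bright on every healthy array: Slc34a1, the phosphate transporter of the proximal tubule, was at 13.61 or above and Umod, the uromodulin gene of the thick ascending limb, at 13.12 or above. Nr3c1, the targeted gene, spanned 9.48 to 9.65 on the healthy and 8.82 to 8.89 on the injured arrays of controls, and 8.13 to 8.21 and 7.87 to 8.10 on those of GR-deficient animals. No GR-deficient array reached a control array of the same condition. Nr3c1 fell by 0.69 with AKI in control mice, its response of -0.20 in GR-deficient mice did not pass, and its interaction of 0.50 ± 0.14 (SE) passed at adjusted p = 0.0299. That call held in 6 of the 12 fits that left out 1 array and was lost after quantile normalization (adjusted p = 0.0554). The position of its probes against the deleted exon was not analysed here.

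Most genes that responded to injury in control mice responded less in GR-deficient mice. At an adjusted p under 0.05 in limma, 2283 of 19938 genes passed the interaction (11.5%), 1473 with a higher response in GR-deficient mice (7.39%) and 810 with a lower one (4.06%). The higher share was 64.5% as deposited and 53% after quantile normalization between the arrays. AKI itself passed for 5715 genes in control mice (28.7%), of which 13.6% of all genes rose and 15.1% fell. In GR-deficient mice it passed for 926 genes (4.64%), with 3.29% that rose and 1.35% that fell. Responders were taken as the genes that passed in control mice with at least a 2-fold change, which gave 519 genes that rose (2.60%) and 787 that fell (3.95%).

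Of these 1306 responders, 1091 were blunted (83.5%): they passed the interaction against the direction of the control response and responded less in GR-deficient mice. The blunted genes were 392 that rose and 699 that fell in control mice. In 577 of them the GR-deficient response was under 25% of the control response in size (largely lost), and the other 514 were partly blunted. The GR-deficient response had the opposite sign in 129 of the first and 19 of the second. How many of these signs rest on GR-deficient healthy replicate 1 was not tested. Only 19 responders met the definition of kept (1.45%), which asked for a pass in both genotypes in the same direction and a 95% interval of the interaction within 50% of the control response. Another 196 responders (15%) passed neither the interaction nor the definition of kept. A further 12 genes gained a response: they passed with at least a 2-fold change in GR-deficient mice, passed the interaction in the same direction, and responded more there than in control mice. The interaction and both responses come from the same 12 arrays, so these classes sort the genes and are not separate tests.

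**Figure D1:**
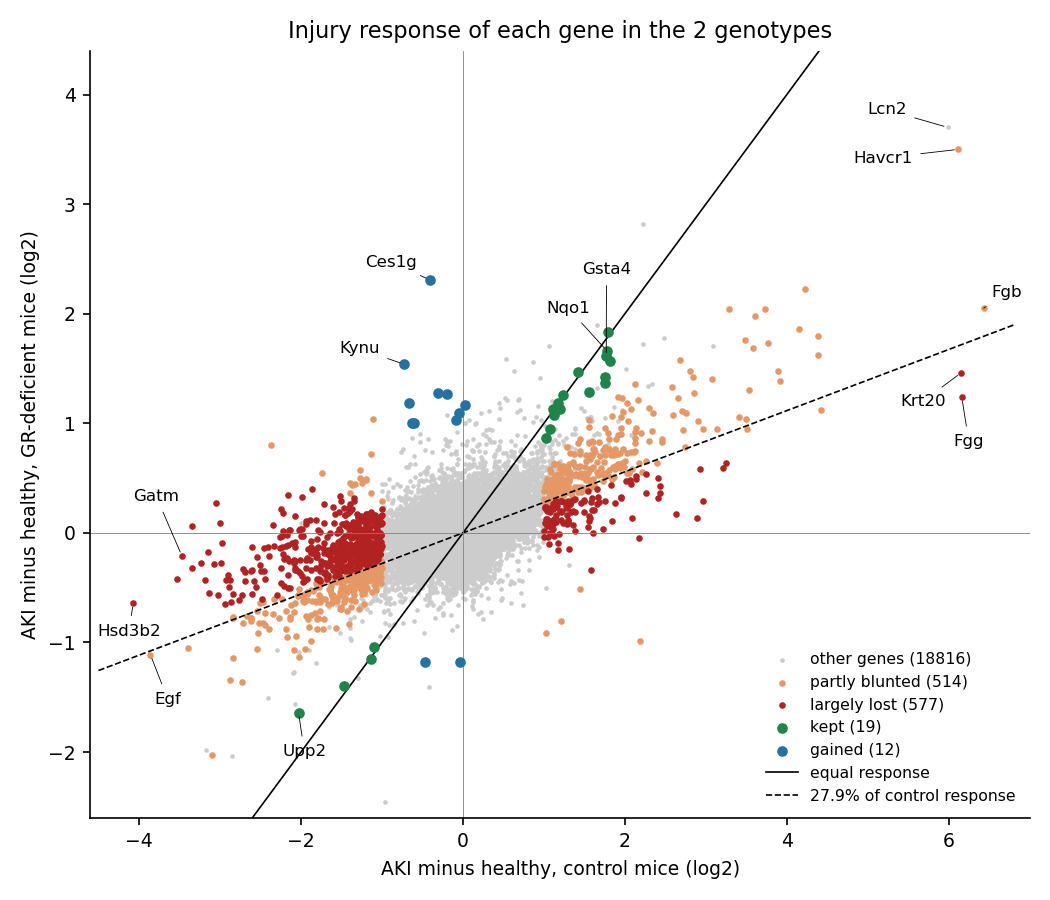
The log2 injury response of each of 19938 genes in control mice (x axis) is plotted against that in GR-deficient mice (y axis). Colours mark the 577 largely lost, 514 partly blunted, 19 kept and 12 gained genes, the solid line is an equal response and the dashed line is 27.9% of the control response. The median responder lies at 26.6% of the control response, with 36.7% for those that rose and 18.6% for those that fell. The kept genes lie near the solid line, and Ces1g and Kynu lie high with no rise in control mice.

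The promoters of 6 genes are shown because these genes stand for the 3 outcomes: Fgb, Fgg and Krt20 for blunted genes, Blvrb and Nqo1 for kept and Ces1g for gained. Sequences are from RefSeq on build GRCm38.p6 and span 250 bases before to 50 after the start, 5′ to 3′ on the strand of the gene. Fgb is at chr3:83049814-83050113 (minus strand), Fgg at chr3:83007474-83007773 (plus), Krt20 at chr11:99438104-99438403 (minus), Blvrb at chr7:27447728-27448027 (plus), Nqo1 at chr8:107403156-107403455 (minus) and Ces1g at chr8:93337160-93337459 (minus). Capitals mark matches to the motifs searched, other than the short GR core described below them.
Fgb: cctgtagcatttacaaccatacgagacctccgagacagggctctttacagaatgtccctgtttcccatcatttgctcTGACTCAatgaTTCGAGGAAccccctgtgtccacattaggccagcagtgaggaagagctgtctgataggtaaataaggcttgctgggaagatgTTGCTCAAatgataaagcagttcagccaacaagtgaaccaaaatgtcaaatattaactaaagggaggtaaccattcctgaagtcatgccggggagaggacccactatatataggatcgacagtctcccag
Fgg: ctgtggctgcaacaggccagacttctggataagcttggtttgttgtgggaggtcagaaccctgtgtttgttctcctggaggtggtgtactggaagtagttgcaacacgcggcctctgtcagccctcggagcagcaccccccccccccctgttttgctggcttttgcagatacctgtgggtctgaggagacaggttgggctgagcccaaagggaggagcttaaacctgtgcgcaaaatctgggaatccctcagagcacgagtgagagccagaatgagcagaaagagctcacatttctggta
Krt20: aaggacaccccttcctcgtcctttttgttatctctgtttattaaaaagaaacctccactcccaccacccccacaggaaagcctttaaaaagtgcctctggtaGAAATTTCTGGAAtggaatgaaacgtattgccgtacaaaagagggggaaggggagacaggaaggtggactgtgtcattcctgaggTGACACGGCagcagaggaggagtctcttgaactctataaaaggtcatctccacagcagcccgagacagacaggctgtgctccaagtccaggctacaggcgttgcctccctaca
Blvrb: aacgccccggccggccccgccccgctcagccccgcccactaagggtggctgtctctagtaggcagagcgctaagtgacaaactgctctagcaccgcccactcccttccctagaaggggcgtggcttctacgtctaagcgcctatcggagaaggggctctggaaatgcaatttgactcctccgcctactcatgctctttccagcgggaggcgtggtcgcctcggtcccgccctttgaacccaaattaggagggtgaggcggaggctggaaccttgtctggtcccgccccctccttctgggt
Nqo1: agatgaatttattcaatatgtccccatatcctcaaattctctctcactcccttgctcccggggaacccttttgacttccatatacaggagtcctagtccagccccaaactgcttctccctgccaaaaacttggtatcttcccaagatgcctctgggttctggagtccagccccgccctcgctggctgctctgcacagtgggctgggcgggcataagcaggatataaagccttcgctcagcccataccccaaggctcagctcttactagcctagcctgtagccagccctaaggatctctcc
Ces1g: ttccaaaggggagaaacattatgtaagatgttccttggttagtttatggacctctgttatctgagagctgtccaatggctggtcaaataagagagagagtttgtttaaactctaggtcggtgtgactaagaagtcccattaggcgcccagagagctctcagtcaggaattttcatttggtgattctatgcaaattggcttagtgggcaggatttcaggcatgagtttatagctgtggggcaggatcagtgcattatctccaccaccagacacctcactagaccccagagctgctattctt

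In Fgb the capitals are, from the left, an AP-1 motif at -173, a STAT3 motif at -162 and a C/EBP motif at -80, counted in bases from the start. In Krt20 they are a heat shock element at -148 and an NRF2 antioxidant element at -63. Fgg held only the short GR core, on the minus strand at -183, and the windows of Blvrb, Nqo1 and Ces1g held none of the motifs searched. Motifs were searched on both strands: the full GR element and the heat shock element by their consensus, and by their letters the GR core AGAACA (which the full element contains), the NRF2 element TGACNNNGC, AP-1 TGANTCA, STAT3 TTCNNNGAA and C/EBP TTGCNNAA. A promoter was in the table for 15614 of the 19938 genes.

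The full GR element was rare in these windows, at 0.0448% of all genes, 0 of 294 blunted genes that rose and 1 of 560 that fell. Its core was in 15.6% of all promoters, 9.18% of blunted genes that rose and 15% of those that fell. The NRF2 element was in 13.4% of all promoters, in 20.4% of blunted genes that rose (60 of 294), in 11.4% of those that fell and in 2 of 13 kept genes that rose (Abcc4 and Pir). AP-1 was in 6.98% of all, 11.6% of blunted genes that rose and 4.64% of those that fell. Among the 13 kept genes that rose, AP-1 was in 2 (15.4%) and C/EBP in 2 (15.4%). The other motifs differed less between blunted genes that rose and all genes: STAT3 in 9.52% against 7.83%, C/EBP in 9.86% against 9.68% and the heat shock element in 0.34% against 0.416%. These shares were not tested, and a match of letters is not a binding site. Bases outside these windows were not searched, so a window without a match does not show that the gene lacks the motif.

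Among blunted genes that rose in control mice, the fibrinogen chains and the keratin Krt20 had the largest interactions. Fibrinogen is the clotting protein built of the chains Fga, Fgb and Fgg. Fgb was at 6.25, 6.06 and 5.83 in healthy control mice and 12.29, 12.66 and 12.47 after AKI. Without GR it was at 7.44, 6.08 and 6.63 when healthy and 7.89, 9.86 and 8.55 after AKI. Every injured control array lay above every GR-deficient array, and the injured GR-deficient arrays lay above their healthy group and varied more. Fgb rose by 6.43 in control mice and by 2.05 in GR-deficient mice, and the interaction was -4.38 ± 0.55 (adjusted p = 0.000234, limma, n = 3 per group). Fgg had the largest interaction of all blunted genes that rose, -4.92 ± 0.75 (adjusted p = 0.000802), with responses of 6.16 and 1.24. Its injured GR-deficient arrays were at 8.25, 11.09 and 8.91, and its GR-deficient response did not pass (adjusted p = 0.226). Fga had responses of 4.42 and 1.12, of which the second did not pass.

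Krt20, a keratin of simple epithelia that injured tubule cells express, was at 5.40, 5.60 and 5.45 in healthy and 11.88, 11.51 and 11.53 in injured control mice. In GR-deficient mice it was at 6.46, 5.24 and 5.45 when healthy and 7.47, 7.46 and 6.60 with AKI. Every injured control array stood far above every GR-deficient array. Krt20 rose in both genotypes, by 6.15 and 1.46, with an interaction of -4.70 ± 0.39 (adjusted p = 1.94e-05).

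Sox9, a transcription factor of regenerating tubule, lost nearly its whole injury response. It was at 6.58, 6.31 and 6.63 in healthy and 9.15, 9.24 and 9.03 in injured control mice, and at 6.74, 6.84 and 6.96 in healthy and 7.17, 7.04 and 6.83 in injured GR-deficient mice. The healthy and injured GR-deficient arrays overlapped. The control rise of 2.63 stood against 0.17 without GR, 6.41% of it, and the interaction of -2.47 ± 0.17 had an adjusted p of 7.06e-06. Havcr1, the gene of the shed injury marker KIM-1, kept more. Its injured arrays were at 12.73, 12.92 and 12.78 in control mice and 10.75, 11.11 and 9.53 in GR-deficient mice, and it rose by 6.12 and 3.50, with an interaction of -2.62 ± 0.66 (adjusted p = 0.018, and 0.0749 with a trended and robust variance prior). Lcn2, the gene of the iron-carrier binding protein NGAL, rose by 5.99 and 3.70, and its interaction of -2.29 ± 0.77 did not pass (adjusted p = 0.0726). Healthy GR-deficient replicate 1 held 9.94 of it against 6.99 and 7.18 on the other arrays of that group.

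**Figure D2:**
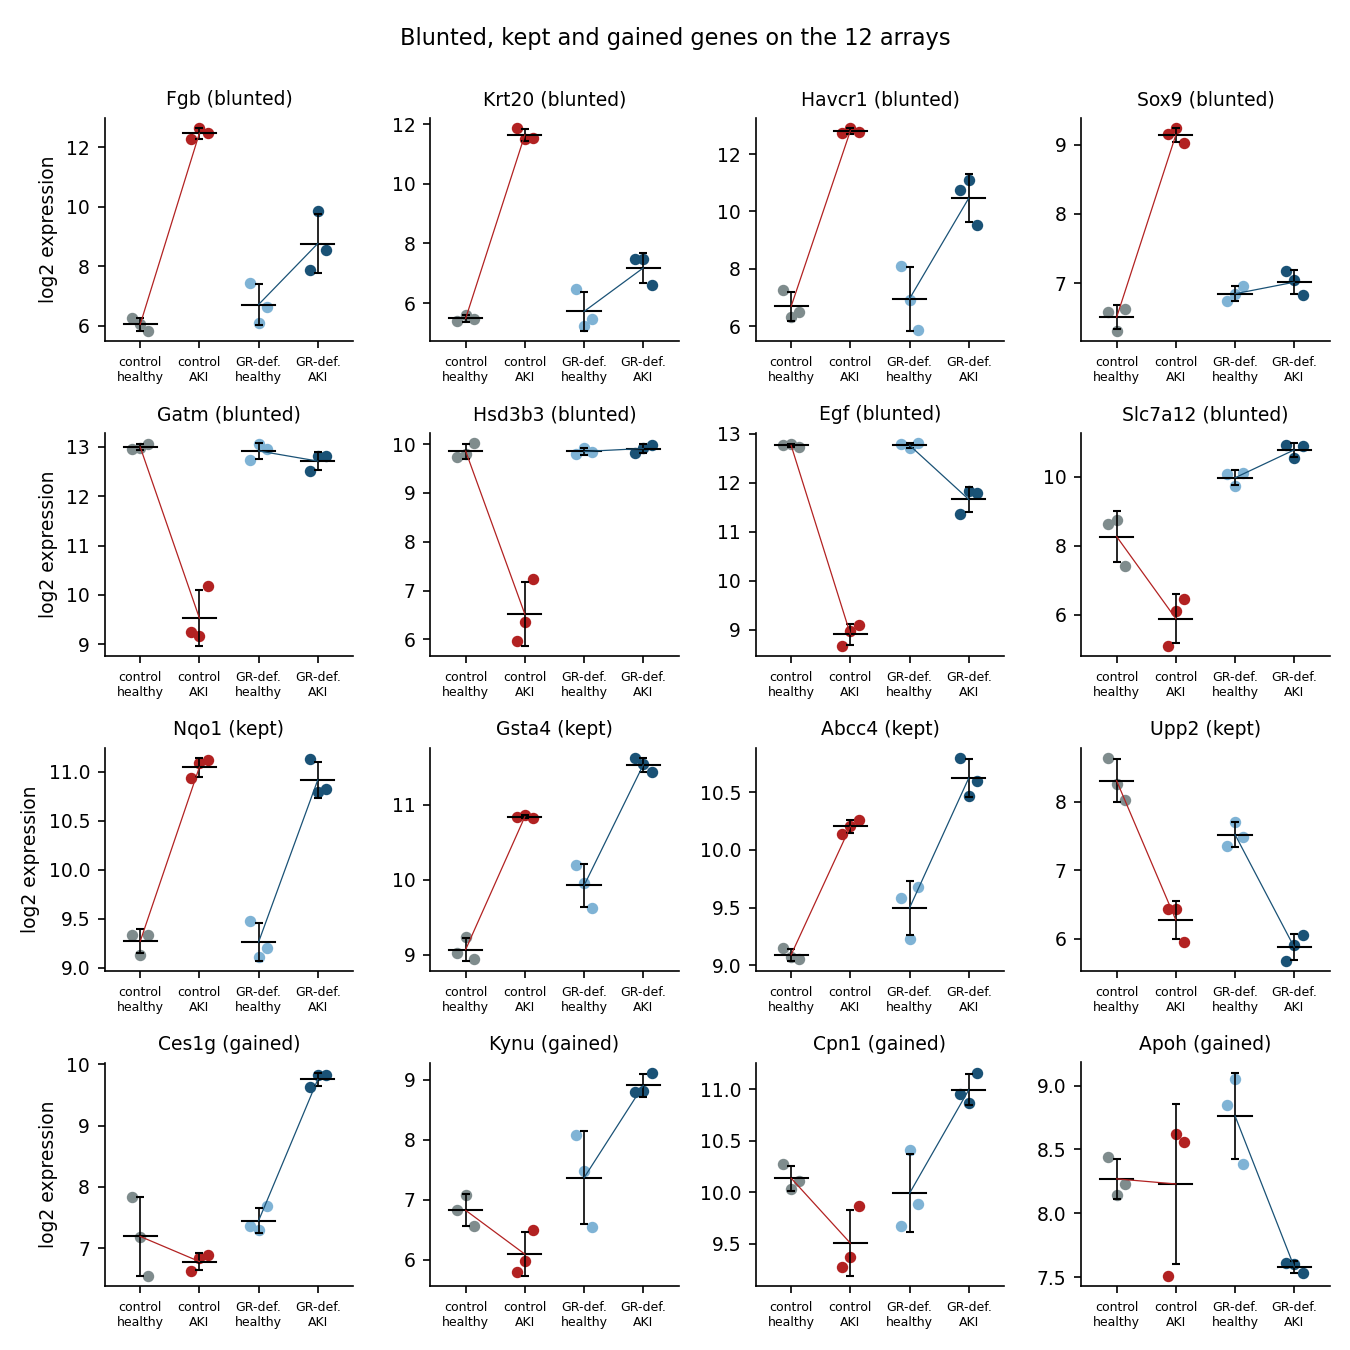
Log2 expression of 16 genes on the 12 arrays, with a point for each array, a bar for the mean and whiskers for the SD (n = 3), and a line joining healthy to AKI in each genotype. The top panels are blunted genes that rose (Fgb, Krt20, Havcr1, Sox9), followed by blunted genes that fell (Gatm, Hsd3b3, Egf, Slc7a12, the last with healthy GR-deficient arrays above the healthy control arrays), kept genes (Nqo1, Gsta4, Abcc4, Upp2) and gained genes (Ces1g, Kynu, Cpn1, Apoh).

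The other blunted genes with the largest interactions among those that rose included stress and metabolic genes. Hspa1a, an inducible heat shock protein of the Hsp70 family, was at 11.43, 11.08 and 10.76 in injured control mice and 8.63, 8.93 and 8.56 in injured GR-deficient mice, where the healthy arrays spanned 8.11 to 9.14. The GR-deficient groups overlapped. Hspa1a rose by 2.89 in control mice against a response of 0.14 (interaction -2.75 ± 0.32, adjusted p = 0.000131). Plin2, a coat protein of lipid droplets, rose by 3.21 against a response of 0.59, and Plk3, a stress-activated kinase, by 3.25 against 0.64. Hspb1, a small heat shock protein, rose in both genotypes by 4.39 and 1.80, and Arg2, the mitochondrial arginase, by 3.51 and 0.95. Lrg1, a secreted acute phase glycoprotein, rose by 4.39 and 1.62. Chil3, a chitinase-like protein of myeloid cells, rose by 2.96 against a response of 0.29.

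Blunted genes that fell in control mice included many genes of the differentiated tubule, and several stayed near their healthy level without GR. Gatm, the first enzyme of creatine synthesis, was at 12.96, 12.98 and 13.06 in healthy and 9.24, 9.17 and 10.18 in injured control mice, and at 12.74, 13.07 and 12.95 in healthy and 12.51, 12.81 and 12.82 in injured GR-deficient mice. Healthy and injured control arrays lay far apart, while GR-deficient arrays overlapped. Gatm fell by 3.47 in control mice against a response of -0.21, with an interaction of 3.26 ± 0.29 (adjusted p = 3.53e-05). Hsd3b3, a steroid dehydrogenase, was at 5.96, 6.36 and 7.23 in injured control mice and 9.81, 9.93 and 9.99 in injured GR-deficient mice, where the healthy arrays were at 9.79, 9.93 and 9.83. Its responses were -3.34 and 0.06 (interaction 3.39 ± 0.32, adjusted p = 4.1e-05). Hsd3b2 of the same family had the largest interaction of the blunted genes that fell, 3.43 ± 0.31, with responses of -4.07 and -0.64. Members of this family are alike in sequence, so probes may share signal between them.

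Egf, the epidermal growth factor gene of the distal nephron, fell in both genotypes. It was at 12.77, 12.79 and 12.74 in healthy and 8.67, 8.97 and 9.09 in injured control mice, and at 12.79, 12.71 and 12.81 in healthy and 11.37, 11.83 and 11.79 in injured GR-deficient mice. The healthy arrays of both genotypes overlapped, and the injured ones did not overlap. Egf fell by 3.86 and 1.11, and its interaction of 2.75 ± 0.19 had an adjusted p of 7.06e-06.

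Further losses concerned receptors and enzymes of the tubule. Sucnr1, the succinate receptor, had responses of -3.53 and -0.42. Acmsd, an enzyme that draws the tryptophan pathway away from NAD synthesis, had -3.00 and 0.09, and Cckar, a cholecystokinin receptor, had -2.98 and -0.09. Sfrp1, a secreted WNT antagonist, had -3.05 and 0.27, and Slco4c1, an organic anion carrier, had -3.07 and -0.28. In control mice all of these fell, and in GR-deficient mice none of these responses passed. Sfrp1 was at 10.11 on healthy GR-deficient replicate 1 against 11.14 and 11.36 on the other arrays of that group. Its injured GR-deficient arrays were at 11.07, 11.32 and 11.03, so the sign of 0.27 leans on that replicate. Hykk and Sectm1b, the other blunted genes among the 12 largest that fell, had interactions of 3.03 ± 0.41 and 2.97 ± 0.36.

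Slc7a12, an amino acid transporter, was higher on every healthy GR-deficient array than on any healthy control array, a difference that did not pass. It was at 8.64, 8.75 and 7.40 in healthy control mice and 10.07, 9.72 and 10.10 in healthy GR-deficient mice, a difference of 1.70 (adjusted p = 0.0644). After AKI it was at 5.10, 6.10 and 6.47 in control and 10.91, 10.53 and 10.87 in GR-deficient mice, so the injured groups lay far apart. It fell by 2.37 in control mice, and its response of 0.80 in GR-deficient mice did not pass.

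Control and GR-deficient responses mostly shared their sign. Of the 1306 responders, 1154 (88.4%) responded in the same direction in GR-deficient mice, 1295 (99.2%) responded less, and 402 passed there in the same direction, 248 upward and 154 downward. The slope through the origin of the GR-deficient on the control response was 27.9% over all responders, 38.3% over those that rose and 19.7% over those that fell. Choosing the genes by the control response can lower this slope and raise the number that responded less. Over the 135 genes that passed with at least 2-fold in GR-deficient mice (109 that rose, 0.547%, and 26 that fell, 0.130%), the slope was 52.4%, and 90 of them responded more in control mice. Choosing genes by the GR-deficient response can raise the slope.

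The size of the remaining response differed between injured GR-deficient arrays. Set against the mean of the healthy GR-deficient arrays, replicate 1 held 35.1% of the control response, replicate 2 held 27% and replicate 3 held 21.6%. Against healthy replicates 2 and 3 alone these were 39%, 30.9% and 25.5%, and healthy replicate 1 lay 11.6% of the control response above the other arrays of its group. Without both arrays that stood apart the slope was 33%, with 39.3% for genes that rose and 26.7% for genes that fell. Among genes chosen by the control response, those that rose kept the larger share with and without those arrays. Among the 135 genes chosen by the GR-deficient response the order was not the same, at 51.9% for those that rose and 54.7% for those that fell, with a median of 61.8% in both.

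The kept genes were few and included several detoxifying enzymes. The 15 that rose had control responses of 1.02 to 1.82 and GR-deficient responses of 0.87 to 1.83. They were Abcc4, Akr1c13, Bco1, Blvrb, Cd151, G6pd2, Gbe1, Gsta4, Gstp1, Myof, Nqo1, Pdgfrb, Pgd, Pir and Sema3c. Nqo1, a quinone reductase, was at 9.34, 9.13 and 9.34 in healthy and 10.94, 11.09 and 11.12 in injured control mice, and at 9.48, 9.11 and 9.20 in healthy and 11.13, 10.80 and 10.83 in injured GR-deficient mice. The injured arrays of both genotypes overlapped, as did the healthy ones. Nqo1 rose by 1.78 and 1.66, and the interaction was -0.12 with a 95% interval of -0.5 to 0.26.

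Gsta4, a glutathione transferase that removes lipid peroxidation products, rose by 1.77 and 1.61 from different levels. It was at 9.02, 9.24 and 8.95 in healthy control mice and 10.20, 9.95 and 9.62 in healthy GR-deficient mice, a difference of 0.85 that passed (adjusted p = 0.0233), and at 10.84, 10.86 and 10.82 against 11.62, 11.54 and 11.43 after AKI. GR-deficient arrays were above control arrays in each condition, and the step between conditions had an interaction of -0.17 with an interval of -0.58 to 0.24. Abcc4, an efflux pump for organic anions, rose by 1.11 and 1.13. Blvrb, the biliverdin reductase that acts after heme is opened, rose by 1.79 and 1.83. Gbe1, the glycogen branching enzyme, rose by 1.42 and 1.47, and Gstp1, another glutathione transferase, by 1.17 and 1.19. Pgd, of the pentose phosphate pathway that makes NADPH, rose by 1.76 and 1.37. Its interaction of -0.39 ± 0.15 did not pass as deposited (adjusted p = 0.128) and passed at -0.66 after quantile normalization and -0.61 after cyclic loess. G6pd2, Gstp1 and Akr1c13 have near-identical relatives whose signal the probes may share.

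Of the 4 kept genes that fell, Upp2, a uridine phosphorylase, had the largest change. It was at 8.64, 8.25 and 8.02 in healthy and 6.44, 6.44 and 5.95 in injured control mice, and at 7.36, 7.71 and 7.49 in healthy and 5.68, 5.91 and 6.05 in injured GR-deficient mice. Healthy and injured arrays did not overlap in either genotype, and Upp2 fell by 2.03 and 1.64. Bcat1, a transaminase of branched-chain amino acids, fell by 1.47 and 1.40, Cyp7b1, an oxysterol hydroxylase, by 1.14 and 1.15, and Fmod, a matrix proteoglycan, by 1.10 and 1.04.

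The kept class rests on precise estimates as well as on equal responses. When each array was left out in turn, 8 of the 19 stayed in the class in all 12 fits (Abcc4, Cd151, Gbe1, Gsta4, Gstp1, Nqo1, Pgd and Sema3c), and 5 were in it in at most 6 of them, of which Bcat1 was in none. After quantile or loess normalization Cd151, Cyp7b1 and Pdgfrb left it. Pgd stayed inside the margin, but its interaction then passed in limma as a smaller rise (adjusted p = 0.0115 and 0.0165). Among the 6 responders outside every class with the largest GR-deficient response, Slc16a6, a carrier of the monocarboxylate family, rose by 1.66 and 1.90, and Cyp4a14, a fatty acid hydroxylase, by 2.23 and 2.82. Their interactions of 0.24 ± 0.29 and 0.60 ± 0.80 did not pass.

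Among 26 measured genes of heme breakdown and the NRF2 response, the 12 responders divided into 7 blunted and 5 kept. Of the 26, 19 rose in control mice and 20 in GR-deficient mice, and the median responses were 0.92 and 0.69, beside 0 and -0.03 over all genes. The interaction passed lower for 7 (4.06% over all genes): Hmox1, Akr1b8, Srxn1, Txnrd1, Cbr3, Slc7a11 and Abcc3. Hmox1, the oxygenase that opens heme, was at 9.28, 9.23 and 8.97 in healthy and 12.99, 12.96 and 12.84 in injured control mice, and at 9.41, 9.10 and 9.72 in healthy and 11.66, 11.11 and 10.65 in injured GR-deficient mice. All injured GR-deficient arrays were above healthy arrays and below injured control arrays. Hmox1 rose by 3.77 and 1.73 (interaction -2.04 ± 0.29, adjusted p = 0.000562). Akr1b8, an aldo-keto reductase, rose by 4.23 and 2.23, Srxn1, a sulfiredoxin, by 3.48 and 1.76, and Slc7a11, the cystine carrier of glutathione supply, by 4.15 and 1.86. None of the 7 was largely lost, and the 5 kept members were Nqo1, Gsta4, Pgd, Blvrb and Abcc4. Ephx1, an epoxide hydrolase, passed in the other direction: its response was -0.20 in control mice and it rose by 0.82 in GR-deficient mice (interaction 1.02 ± 0.27, adjusted p = 0.0257). After quantile normalization 10 members passed lower and after cyclic loess 12, so the count of blunted members depends on the scaling.

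**Figure D3:**
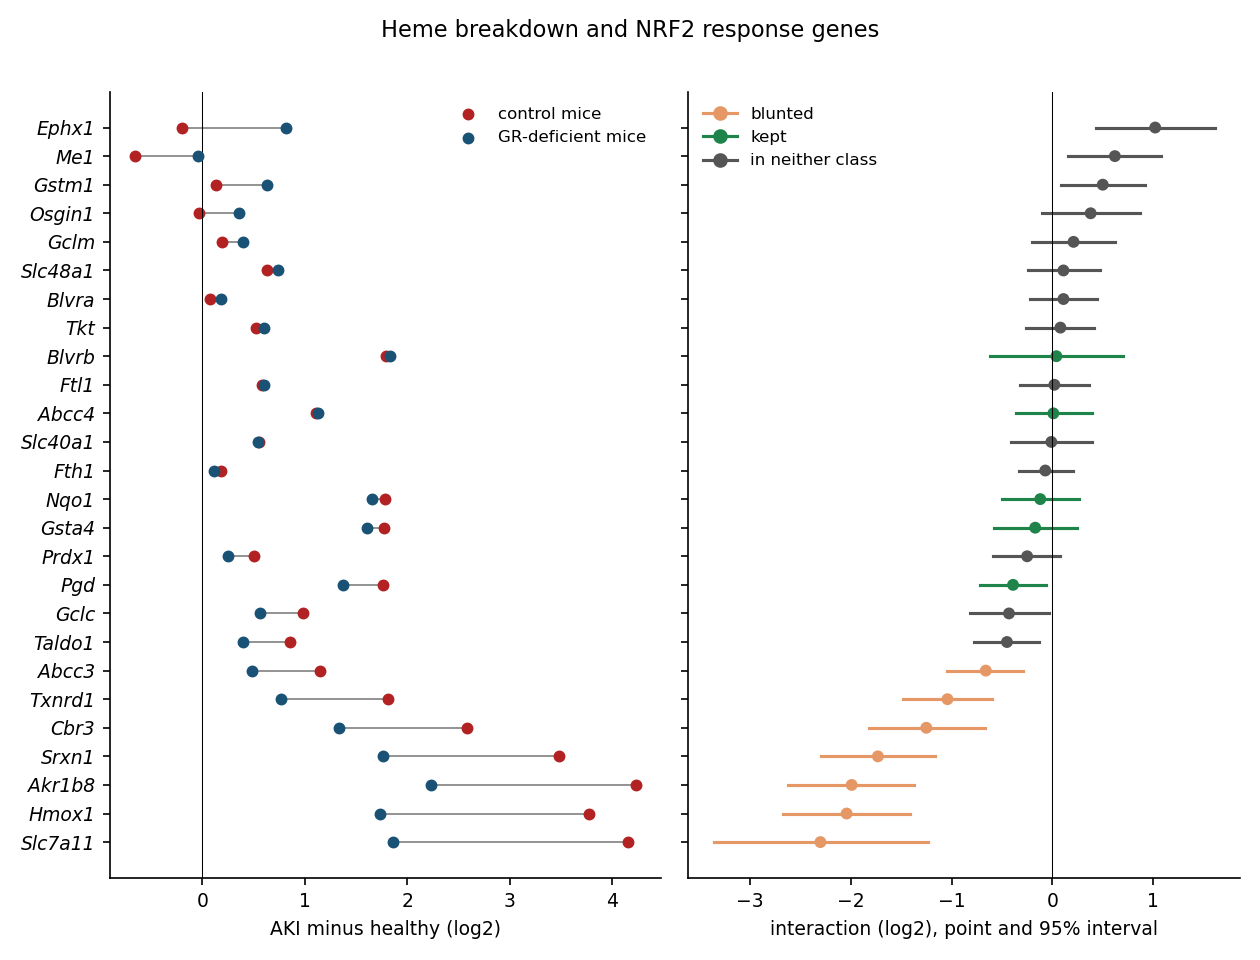
Left, the log2 injury response of 26 genes of heme breakdown and the NRF2 response in control and GR-deficient mice. Right, the interaction of each with its unadjusted 95% interval, coloured by class. Slc7a11, Hmox1 and Akr1b8 have the most negative interactions of the list, the 5 kept genes lie near 0, and Ephx1 lies highest at 1.02.

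Of the 12 gained genes, Ces1g and Kynu had the largest interactions. Ces1g, a carboxylesterase, was at 7.84, 7.18 and 6.55 in healthy and 6.63, 6.83 and 6.88 in injured control mice, and at 7.36, 7.30 and 7.68 in healthy and 9.63, 9.82 and 9.82 in injured GR-deficient mice. The injured GR-deficient arrays lay above all others. Ces1g rose by 2.31 in GR-deficient mice against a response of -0.41 in control mice that did not pass (interaction 2.72 ± 0.32, adjusted p = 0.000158). Kynu, the kynureninase of tryptophan breakdown, was at 6.83, 7.09 and 6.56 in healthy and 5.80, 5.99 and 6.50 in injured control mice, and at 8.08, 7.48 and 6.55 in healthy and 8.79, 8.81 and 9.12 in injured GR-deficient mice. The healthy GR-deficient arrays spread widely and still lay below the injured ones. Kynu rose by 1.54 without GR against -0.73 in control mice (interaction 2.26 ± 0.41, adjusted p = 0.00253).

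Ugt2b34, a glucuronosyltransferase, rose by 1.28 in GR-deficient mice against -0.31, and Slc5a1, the glucose carrier SGLT1, by 1.03 against -0.09. Nab2, a corepressor of EGR factors, rose by 1.09 against -0.05, and Creg1, a secreted glycoprotein, by 1.17 against 0.03. Tmem150a and Nat8f2 rose by 1.00 and 1.27 against -0.61 and -0.20, none of which passed in control mice. Cpn1, the catalytic chain of carboxypeptidase N, reversed: it fell by 0.63 in control mice and rose by 1.00 in GR-deficient mice (interaction 1.63 ± 0.26, adjusted p = 0.00108). The predicted gene Gm10845 did the same, falling by 0.66 and rising by 1.19. After quantile or loess normalization Cpn1, Slc5a1 and Tmem150a left the gained class, while their interactions still passed.

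The 2 gained genes that fell were Apoh and Sult1d1. Apoh, a phospholipid-binding plasma protein gene, was at 7.51, 8.62 and 8.56 in injured control mice and 7.61, 7.60 and 7.53 in injured GR-deficient mice, and control AKI replicate 1 lay with the GR-deficient arrays. It fell by 1.18 in GR-deficient mice against -0.04 (interaction -1.14 ± 0.34, adjusted p = 0.0411). Sult1d1, a sulfotransferase, fell in both genotypes, by 0.47 and 1.18, the only gained gene that did so in the same direction. Ces1g, Kynu and Ugt2b34 stayed in the gained class in all 12 fits without 1 array, and Apoh in 2 of them, Tmem150a in 3, Nat8f2 in 4 and Sult1d1 in 6. Without GR-deficient healthy replicate 1, which lay away from its group, only 4 of the 12 stayed (Ces1g, Kynu, Sult1d1 and Ugt2b34). On that array Creg1 was at 8.91 against 9.91 and 9.99 on the other arrays of its group, and Gm10845 at 7.46 against 8.33 and 8.37. Apoh, at 8.85 against 9.05 and 8.39, did not stand apart there.

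Members of the injury lists that passed the interaction passed lower, with few exceptions. Counts are members that passed, beside 4.06% of all genes that passed lower and 7.39% that passed higher. Medians are of the response in control and GR-deficient mice. The lists hold many responders, and of all 1306 responders 83.5% were blunted. That share was similar among tubular injury markers (13 of 15), immediate early factors (9 of 11) and proximal tubule genes (23 of 28). It was 11 of 11 among keratin and cytoskeleton genes and 7 of 12 among heme breakdown and NRF2 genes. So a count above the share of all genes does not set a list apart from other responders. Of 17 tubular injury markers 13 passed lower, with medians of 2.46 and 0.89. Of 19 fibrinogen and acute phase genes 8 passed lower, with medians of 0.86 and 0.08: the fibrinogen chains, Lrg1, the serum amyloid genes Saa1, Saa2 and Saa3, and the protease inhibitor Serpina3n. Of 22 keratin and cytoskeleton genes 11 passed lower, with medians of 0.99 and 0.44, among them Actn1, an actinin (-1.11 ± 0.17), and Krt8, a keratin of simple epithelia (-1.07 ± 0.24). Of 20 immediate early factors 12 passed lower, with medians of 1.21 and 0.32, among them Fosl1 of the AP-1 family (-2.41 ± 0.32) and Klf6 (-2.00 ± 0.26).

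Proteostasis genes followed the same direction. Of 24 genes tied to unfolded proteins or the integrated stress response 10 passed lower and 1 higher, with medians of 1.10 and 0.51. Atf4, the factor at the centre of the integrated stress response, rose by 1.49 in control mice against a response of 0.19, and Ddit3, its target CHOP, by 2.14 against 0.49. Hspa5, the chaperone BiP, rose by 1.10 in control mice, and its interaction of -0.41 ± 0.27 did not pass. The member that passed higher was Vldlr, a lipoprotein receptor, which fell by 0.97 in control mice against 0.02. Of 13 heat shock chaperones 6 passed lower, with medians of 0.87 and 0.16, and of 17 genes of the p53 response 4 did, with medians of 0.54 and 0.28. Among those 4, Plk3 and Btg2 passed in all 12 fits without 1 array, Tnfrsf10b in only 3 and Trp53inp1 in only 4.

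Genes of the differentiated tubule passed higher, since their fall was smaller. Of 32 proximal tubule genes 25 passed higher, with medians of -1.53 and -0.32, and 17 were largely lost responses. The mean of this list was 11.37, 11.79 and 11.83 on the healthy and 11.20, 11.38 and 11.35 on the injured GR-deficient arrays. Healthy replicate 1, which lay away from its group, thus makes the remaining fall smaller. Over all responders that fell, the slope was 19.7%, and 25% without that array. Slc34a1 fell by 1.52 in control mice against a response of -0.25, Lrp2, the uptake receptor megalin, by 1.39 against -0.02, and Hnf4a, a factor of proximal tubule identity, by 1.52 against -0.07. Hnf4a was at 11.65, 12.10 and 12.44 on the healthy GR-deficient arrays and 11.98, 11.95 and 12.03 on the injured ones, so the size of -0.07 leans on the first. Of 26 genes of the loop, distal tubule and collecting duct 14 passed higher, with medians of -0.93 and -0.22: Slc12a1, the salt carrier of the thick limb, fell by 2.89 against -0.49, and Kl, the co-receptor Klotho, fell by 2.24 and 0.60. Of 9 gluconeogenesis genes 6 passed higher, with medians of -1.28 and -0.30. The 9 of 23 genes of oxidative phosphorylation that passed higher (medians -0.59 and -0.17) became 2 after quantile normalization and 1 after cyclic loess.

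**Figure D4:**
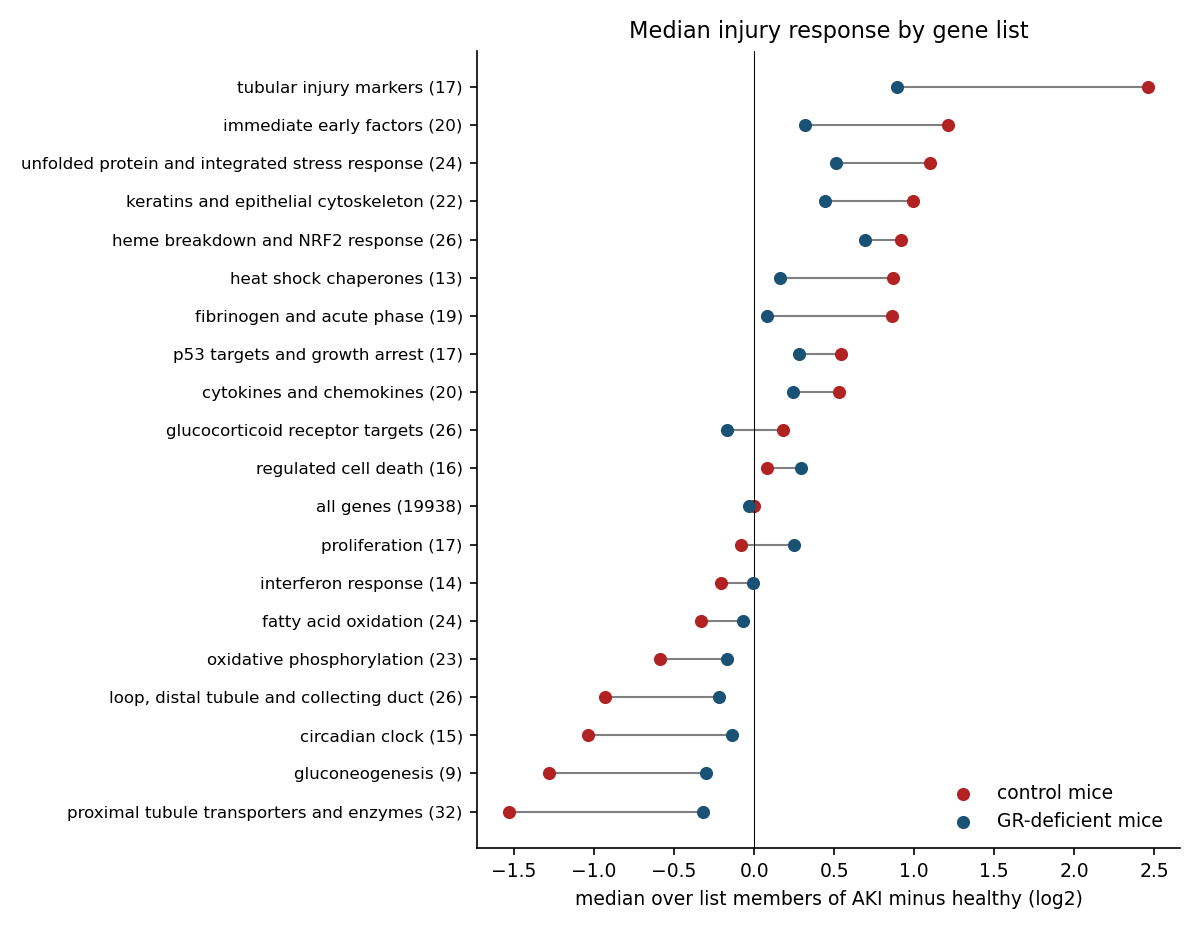
The median log2 injury response of the members of each gene list in control and GR-deficient mice, with the number of measured genes in brackets. Tubular injury markers have the highest medians (2.46 and 0.89) and proximal tubule genes the lowest in control mice (-1.53, against -0.32 in GR-deficient mice). All genes lie at 0 and -0.03.

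Known GR targets did not respond alike. Of 26 measured, 11 passed lower and 3 higher, with median responses of 0.18 and -0.17. Fkbp5, a chaperone partner of GR, was at 9.71, 10.34 and 10.55 in injured control mice and 8.80, 8.44 and 8.49 in injured GR-deficient mice, which did not overlap. It rose by 0.74 against -0.66 (interaction -1.40 ± 0.37, adjusted p = 0.023). The healthy GR-deficient arrays of Fkbp5 were at 8.86, 8.94 and 9.93, so the size of -0.66 leans on the last of them. Zbtb16, a zinc finger factor, passed in opposite directions, rising by 1.03 in control mice and falling by 0.91 without GR (interaction -1.94 ± 0.33, adjusted p = 0.00165). The metallothioneins Mt1 and Mt2 rose in both genotypes, by 1.92 and 0.72 and by 2.84 and 1.42. Tsc22d3, the target GILZ, fell by 0.45 in control mice, and its interaction of 0.11 ± 0.22 did not pass. Fam107a passed higher, falling by 2.62 and 0.78.

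Most clock genes that passed the interaction fell in control mice and had a smaller response in GR-deficient mice. Of 15 clock genes 7 passed higher and 2 lower, with medians of -1.04 and -0.14. Dbp, an output factor of the clock, was at 11.37, 11.11 and 10.77 in healthy control mice and 8.18, 8.35 and 8.63 after AKI. In GR-deficient mice it was at 9.49, 10.33 and 9.85 when healthy and at 9.40, 9.51 and 9.67 after AKI. It was lower without GR when healthy, by 1.19 (adjusted p = 0.0288), and higher after AKI, by 1.14 (adjusted p = 0.000933). Hlf and Tef of the same family fell by 2.11 and 2.44 in control mice, against a response of -0.09 in Hlf and a fall of 0.73 in Tef. Arntl, the core factor BMAL1, rose by 1.52 against 0.48 (interaction -1.04 ± 0.20).

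A small set of replication genes went the other way. Of 17 proliferation genes 3 passed higher, all subunits of the MCM helicase that licenses replication. Mcm2 rose by 0.29 in control mice and by 0.88 in GR-deficient mice, where the injured arrays were at 8.35, 8.39 and 8.25 and the healthy ones at 7.49, 7.42 and 7.45. In control mice they were at 8.07, 7.99 and 8.08 against 7.75, 7.71 and 7.81, so groups did not overlap in either genotype. Mcm5 and Mcm6 rose by 0.79 and 0.53 without GR, against 0.17 and -0.22 that did not pass. Mki67, a marker of cycling cells, had responses of -0.40 and 0.17, and its interaction of 0.57 ± 0.28 did not pass. Of 16 cell death genes, Mlkl, the effector of necroptosis, rose by 2.70 and 1.11 and passed lower together with Acsl4 and Bak1, the last in only 3 of the 12 fits without 1 array. Dpep1, a dipeptidase of the proximal tubule brush border, passed higher: it fell by 1.51 in control mice against -0.27 (interaction 1.24 ± 0.15, adjusted p = 2e-04). Of 20 cytokines and chemokines 5 passed lower and 1 higher, the chemokine Cxcl16 (0.76 ± 0.19, adjusted p = 0.0168). Among those that passed lower was Cxcl1, a neutrophil attractant, which rose by 2.09 in control mice against 0.14 (interaction -1.94 ± 0.19, adjusted p = 5.55e-05).

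Some genes departed from a common factor of 27.9% of the control response. The deviation of the GR-deficient response from that share of the control response passed for 70 genes on the higher side (0.351%) and 9 on the lower side (0.0451%), 27 of them responders. The factor was estimated from the same arrays and taken as fixed. Responders that rose had a slope of 38.3% and those that fell 19.7%, so a single factor shifts the deviations of both toward the higher side. How much of the larger number on that side comes from this was not tested. Kept genes lie above this share by definition, and 16 of the 19 passed. The genes on the higher side with the smallest p were Ces1g, Gstp1, Nqo1, Mcm2, Gbe1 and Gsta4. On the lower side they were Sult1d1, Chst7, Ttr, Upp2, Atp6v1g3 and Htr1b. Ttr, the carrier transthyretin, was a blunted gene that kept much of its fall: it fell by 3.10 and 2.03 (interaction 1.07 ± 0.26, adjusted p = 0.0141). Chst7, a sulfotransferase, fell by 0.93 and 0.95, just under the 2-fold size asked of a responder.

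Interaction genes differed between genotypes mainly after injury. The genotype comparisons share their arrays with the interaction, so they show where a difference sits and add no support. The difference passed in AKI for 3460 genes (17.4%) and in healthy mice for 29 (0.145%). Of the 2283 interaction genes, 1968 passed in AKI alone, 12 in healthy mice alone, 5 in both and 298 in neither. In 2043 of them the genotype difference was larger in size after AKI. The 5 that passed in both were Nr3c1 and Hpgd, the prostaglandin dehydrogenase, with differences in the same direction, and Dbp, Map2k6 and Stk32a, with opposite ones. Map2k6, a kinase upstream of p38, was lower without GR by 0.74 when healthy and higher by 1.23 after AKI.

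**Figure D5:**
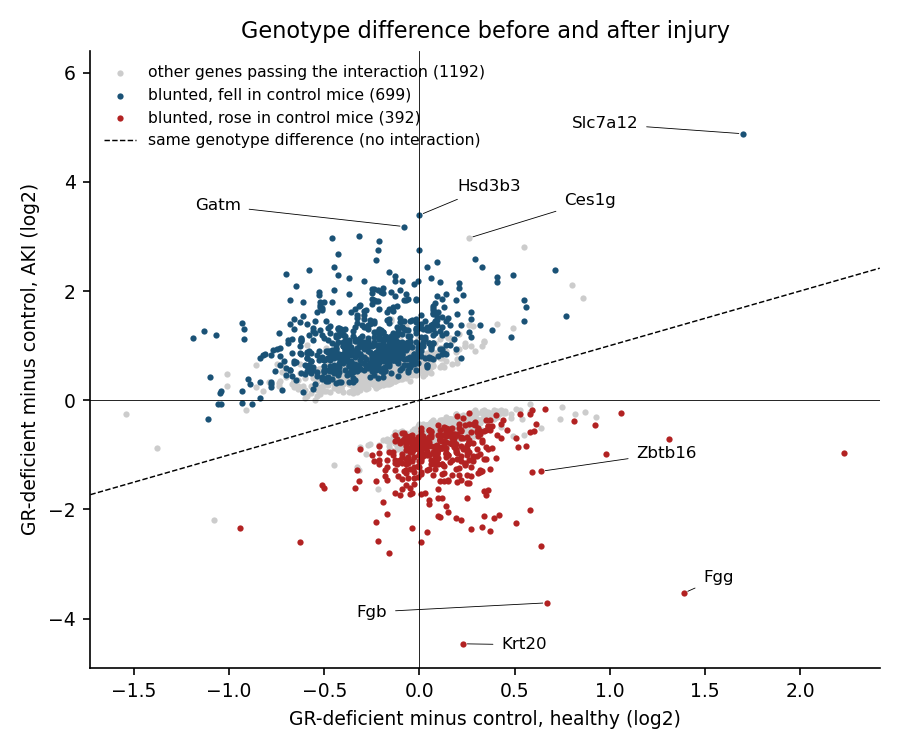
The log2 genotype difference in healthy mice (x axis) against that after AKI (y axis) for the 2283 genes that passed the interaction, with blunted genes coloured by the direction of their control response. Points far from the dashed line of equal difference have large interactions. Most lie near 0 on the x axis and away from 0 on the y axis, and Slc7a12 lies at 1.70 and 4.88.

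Just 3 responders passed in both genotypes in opposite directions. Besides Zbtb16 they were Slc51a, a subunit of the organic solute transporter of bile acids, and Acot3, a peroxisomal thioesterase. Slc51a was at 9.74, 9.94 and 9.94 in healthy and 8.43, 8.66 and 9.19 in injured control mice, and at 9.44, 9.71 and 9.91 in healthy and 10.55, 10.71 and 10.94 in injured GR-deficient mice. The healthy groups overlapped and the injured groups lay on either side of them. Slc51a fell by 1.11 in control mice and rose by 1.04 in GR-deficient mice (interaction 2.16 ± 0.25, adjusted p = 0.000132). Acot3 fell by 1.14 and rose by 0.72.

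Markers of other cell types passed the interaction in differing numbers, and the lists were not tested against one another. Of 16 neutrophil markers 8 rose in control mice and 7 passed the interaction lower, also 7 at an unadjusted p under 0.05. In GR-deficient mice limma passed 0 of them, and 3 were higher at an unadjusted p under 0.05. Their mean level per array was 5.83 to 6.10 in injured control mice, 5.25 to 5.39 in healthy control mice, and 5.29 to 5.57 and 5.31 to 5.40 in the injured and healthy GR-deficient groups. S100a8, a calcium-binding protein of neutrophils, rose by 2.05 against 0.55, while the granule genes Mpo and Elane had interactions of -0.26 ± 0.23 and 0.04 ± 0.16 that did not pass. The part of neutrophil RNA in the blunted genes was not tested. Of 18 monocyte and macrophage markers 2 passed lower, Cd14 (-2.53 ± 0.33) and Cd68 (-1.57 ± 0.24), and 2 higher, Mertk and Csf1r, the last in only 4 of the 12 fits without 1 array. Of 13 lymphocyte and 10 skeletal muscle markers limma passed 0, also at an unadjusted p under 0.05. Endothelial markers passed 3 lower and 3 higher of 15 (9 at an unadjusted p under 0.05), fibroblast and mural markers 1 lower of 15, podocyte markers 1 each way of 7, adipocyte markers 0 of 7 (1 at an unadjusted p under 0.05) and adrenal markers 1 lower of 8. Of 12 hepatocyte markers 3 passed lower and Ttr higher (6 at an unadjusted p under 0.05), and Alb, the albumin gene that defines the cell type, had an interaction of 0.30 ± 0.28 that did not pass.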

How the data were processed

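Deposited log2 expression per probe set was used. The submitters' processing notes name RMA (robust multichip averaging), affy and oligo. RMA corrects background, normalizes arrays to each other and summarises probes. The log base is not given in the sources used here, and array maxima of 14.73 to 14.9 are in the range of log2. Of 35556 probe sets, 21789 had exactly 1 symbol, 1621 several and 12146 none. No dim genes were removed. Differences were tested with limma 3.58.1 in R 4.3.3 on 4 group means (8 residual and 6.26 prior degrees of freedom), two-sided, with Benjamini-Hochberg adjustment over 19938 genes in each contrast. All adjusted p-values and SEs in the text are from this fit. The labels number replicates and do not say that they are separate animals, so p-values measure the spread between samples, which may be technical, and the number of arrays limits the precision. Replicate numbers were not used to pair samples in this fit. Same-numbered arrays of different groups had deviations that correlated at -0.41 to 0.25. Arrays of different number were not compared, so this range cannot show whether same-numbered arrays were related. Members, classes and lists were chosen with earlier results of these data known. Named genes are Nr3c1, those with the largest interaction (blunted, gained) or GR-deficient response (kept), 6 a side for deviation and list members with the smallest p. Predicted genes were skipped. Other genes, named as examples of a list, of both directions or of no class, were chosen after their values were seen. In simulated data, 19638 of 19938 genes had no interaction, and 12 of these passed. An interaction of 1 was recovered for 86% of genes and of 0.5 for 12%. The simulated noise was independent and normal, and no array stood apart. Far more genes, 2283, passed in the real data, so these shares need not carry over to it. Alternatives were other normalizations, a filter, all probe sets, array weights, another variance prior, a replicate block, other sizes and margins, and arrays left out.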

Additional observations from a re-analysis of the deposited data

Results flagged for a closer look

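The response to injury differed between the genotypes by a test of the difference itself for 2283 genes. Among them Cpn1 (interaction 1.63) and Gm10845, a predicted gene (interaction 1.86), passed in both genotypes in opposite directions: Gm10845 fell by 0.66 in control mice and rose by 1.19 in GR-deficient mice. Signal also appeared outside the genes described: of 13767 probe sets without exactly 1 symbol, 269 passed the interaction in a fit over all 35556 probe sets (1.95%, against 5.02% of all probe sets). No outlier test was run on groups of 3 arrays.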

How the results depend on the processing

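Of the 117 named genes that passed the interaction, none changed direction under the alternatives run, and 97 passed in all 12 fits without 1 array. Of those that did not pass, 12 had the other sign in at least 1 alternative, among them the kept genes Blvrb, Bcat1, Cyp7b1, Gbe1 and Sema3c. Array weights moved most counts: 4905 genes for the interaction, 9648 and 3196 for AKI in control and GR-deficient mice, 7000 and 301 for GR deficiency in AKI and in healthy mice, 31 kept, 19 gained and 787 deviating. Tested against a change above 1.2-fold, 916 genes passed the interaction. With 1.5-fold as the smallest change, 1872 genes were blunted and 41 gained, and with the margin narrowed to a smaller share of the control response 4 were kept. For GR deficiency in healthy mice the count was 61 after cyclic loess, 62 after the filter at a mean of 6, 11 over all probe sets and 71 with trend and robust priors. For deviation it was 127 after the filter, 14 over all probe sets and 128 with those priors. Leaving out 1 array gave 1556 to 2696 interaction genes, 943 to 1226 blunted, 13 to 23 kept, 7 to 22 gained, 24.3% to 31.8% for the common factor, 277 to 1448 for AKI in GR-deficient mice, 10 to 115 for GR deficiency in healthy mice and 17 to 187 for deviation. The gained count was 7 without control AKI replicate 2 or control healthy replicate 1, 21 without control AKI replicate 3, and 22 when replicate 3 of the healthy GR-deficient group was dropped. AKI in GR-deficient mice passed for 277 genes without GR-deficient AKI replicate 1, 468 without its replicate 2, 472 when replicate 2 of the healthy GR-deficient group was dropped and 1448 without control AKI replicate 1. Deviation passed for 17, 23 and 39 genes without GR-deficient AKI replicates 1, 2 and 3, for 47 without control healthy replicate 1 or 3, for 33 and 37 without GR-deficient healthy replicates 1 and 2, and for 187 without control AKI replicate 3. GR deficiency in healthy mice passed for 10 to 18 genes when control healthy replicate 1, 2 or 3, GR-deficient AKI replicate 1 or GR-deficient healthy replicate 1 or 2 was left out, and for 73, 45 and 115 without control AKI replicate 1, control AKI replicate 3 and the third healthy GR-deficient array. Dropping both arrays that lay away from their groups left 2351 interaction genes, 1072 blunted (966 of them shared), 23 kept (13 shared) and 8 gained (5 shared). With the replicate block, which the labels do not tie to shared animals, 2013 genes passed the interaction, 1065 were blunted, 18 kept and 11 gained, and the interaction of Nr3c1 had an adjusted p of 0.0525. The causes of these changes were not tested.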
